A study of Saccharomyces cerevisiae with 51 samples.

Results

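The strains described here are the 8 deletion mutants of the mating MAP kinase cascade in the yeast knockout (YKO) library. The choice was by gene name and not by a threshold on counts, but earlier results of these data were known. They are *ste4*Δ (YOR212W), *ste5*Δ (YDR103W), *ste7*Δ (YDL159W), *ste11*Δ (YLR362W), *ste20*Δ (YHL007C), *ste50*Δ (YCL032W), *fus3*Δ (YBL016W), and *kss1*Δ (YGR040W), and they are 8 of the 6128 mutants listed in the barcode table. The library is a pool of *MAT***a** haploid deletion strains, each of which carries 2 short DNA barcodes, the UPTAG and the DNTAG, that identify it by sequencing (Bar-Seq). All groups shared the same engineering: the pool had been transformed with GFP driven by the *FUS1* promoter and marked with *LEU2*, and integration of this reporter at *BAR1* removes the protease that degrades α-factor. The Un groups were grown without α-factor and the In groups received 10 nM α-factor for 2 hr. Each culture was sequenced before sorting (Un presort, In presort) and after sorting for cells without GFP fluorescence (Un Gfp-, In Gfp-), with 3 replicates a group. The sorted cells were grown again in medium lacking leucine before DNA was prepared, so a mutant's share of a sorted library holds both its recovery in the gate and its regrowth, and these cannot be told apart. The study's methods call the sorted replicates biological, while the labels give a replicate number only.

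In haploid **a** cells, α-factor binds the receptor Ste2 and frees the Gβγ dimer of Ste4 and Ste18. Gβγ recruits the scaffold Ste5 and the PAK kinase Ste20 to the membrane, where Ste20 activates the MAPKKK Ste11 with the help of its adaptor Ste50. Ste11 then phosphorylates the MAPKK Ste7, which phosphorylates the MAP kinases Fus3 and Kss1, and these release the transcription factor Ste12 from the repressors Dig1 and Dig2. *FUS1* is a direct Ste12 target, which makes its promoter a readout of the cascade. Ste20, Ste50, and Ste11 also act in the filamentous growth and high osmolarity pathways. Fus3 and Kss1 are known to overlap in function in mating.

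The 12 libraries, each the sum of its UPTAG and DNTAG reads, held 192483 to 13140634 reads, and the shallowest 3 were replicate 3 of Un Gfp-, In Gfp-, and In presort. The UPTAG gave 11.2% to 80.3% of a library's reads. Replicate 1 of every group was sequenced on an Illumina HiSeq 2000, and replicates 2 and 3 on a HiSeq 2500. The 4 *sir* mutants, which express both mating type cassettes and so should lack haploid-specific signaling, served as a reference for the gate. They were chosen with earlier results of these data known, so their rise is no independent check. The paper describes *sir1*Δ as mixed, with a smaller subpopulation that keeps basal GFP and responds to α-factor. The *sir* shares were 8.65- to 20.3-fold (Un) and 7.00- to 19.6-fold (In) higher in the Gfp- pools than before sorting. Their replicates rose without overlap, as did those of 3.72% (Un) and 3.83% (In) of all mutants tested. Most other mutants moved the opposite way. The median tested mutant fell to 0.0397 of its presort share in Un Gfp- and to 0.0227 in In Gfp-. A mutant can therefore be enriched relative to the bulk of the library while its own share of the reads falls, and both scales are given below.

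**Figure D1:**
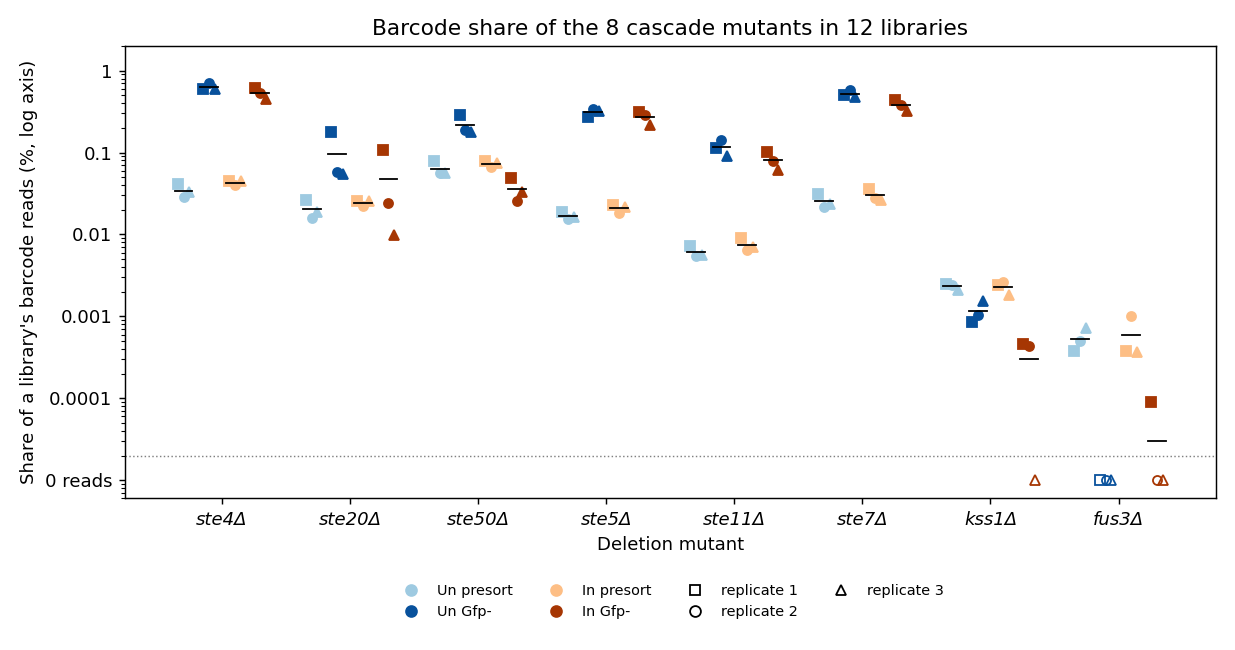
Share of a library's barcode reads (%, log axis) held by each cascade mutant in the 4 groups, with the symbol showing the replicate, short lines showing group means (n = 3), and open symbols for libraries with 0 reads. The Gfp- shares of *ste4*Δ, *ste5*Δ, *ste11*Δ, and *ste7*Δ lie above all presort shares, *ste50*Δ rises in Un Gfp- and falls in In Gfp-, and *kss1*Δ and *fus3*Δ fall in both.

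Before sorting, the cascade mutants were a small part of the library, and after sorting for absence of GFP they were a larger one. Together the 8 made up 0.170% ± 0.0321 of Un presort reads and 1.89% ± 0.163 of Un Gfp- reads (SD, n = 3). With α-factor they made up 0.201% ± 0.0167 of In presort reads and 1.35% ± 0.265 of In Gfp- reads (SD, n = 3). Most of the sorted reads came from *ste4*Δ and *ste7*Δ.

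The uninduced pools were compared to find which cascade mutants lack the GFP that unstimulated cells make. The Gβ mutant *ste4*Δ held 0.0409%, 0.0285%, and 0.0330% of the reads in Un presort replicates 1 to 3, and 0.589%, 0.712%, and 0.593% in Un Gfp-. The scaffold mutant *ste5*Δ held 0.0187%, 0.0155%, and 0.0164% before sorting and 0.270%, 0.343%, and 0.320% after it. For both, every sorted library was far above every presort library. The MAPKKK mutant *ste11*Δ was rarer, at 0.00724%, 0.00543%, and 0.00566% in Un presort, and reached 0.114%, 0.142%, and 0.0914% in Un Gfp-. The MAPKK mutant *ste7*Δ went from 0.0309%, 0.0217%, and 0.0238% to 0.499%, 0.585%, and 0.473%. The ratios of the mean shares of these 4 were alike, at 18.5 (*ste4*Δ), 18.4 (*ste5*Δ), 19.0 (*ste11*Δ), and 20.4 (*ste7*Δ).

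The PAK mutant and the adaptor mutant rose less. The share of *ste20*Δ was 0.0261%, 0.0160%, and 0.0188% in Un presort and 0.177%, 0.0572%, and 0.0540% in Un Gfp-, a ratio of mean shares of 4.74. All 3 sorted libraries were above all 3 presort libraries, but replicate 1 stood well above the other sorted libraries. The share of *ste50*Δ was 0.0795%, 0.0563%, and 0.0555% before sorting and 0.288%, 0.187%, and 0.177% after, a ratio of 3.41, again without overlap.

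The MAP kinase mutants behaved otherwise. The share of *kss1*Δ fell, from 0.00247%, 0.00241%, and 0.00213% in Un presort to 0.000860%, 0.00104%, and 0.00156% in Un Gfp-, a ratio of 0.493, and every sorted library was below every presort library. This strain was rare, with 44 to 137 reads a presort library and 3 to 51 a sorted library. The *fus3*Δ strain had 21, 9, and 18 reads in the Un presort libraries and 0 reads in all 3 Un Gfp- libraries. Over the group, the floor that 3 reads set puts its share at least 12.1-fold lower in Un Gfp-, a limit that rests on the deep replicate 1, since it is at least 2.50-fold without that library. Most of the library fell too: the median tested mutant was at 0.0397 of its presort share in Un Gfp-. With a presort mean of under 50 reads, *fus3*Δ did not pass the filter for the main fits, though its ratio to *kss1*Δ within a library was tested. The filter used presort counts alone, and 7 of the 8 mutants passed it.

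Relative to the bulk of the library (TMM scaling), all 7 tested cascade mutants were called higher in Un Gfp- at an adjusted p under 0.05, against 12.2% of the 3414 mutants tested (5.27% were called lower). The median log2 fold change was 9.19 for the 7 and -0.55 for all mutants tested. On this scale *kss1*Δ had a log2 fold change of 3.88 ± 0.47 (SE), with an adjusted p of 0.000451 (edgeR quasi-likelihood test, Benjamini-Hochberg). On the scale of the share of reads (total counts), the other 6 were called higher, against 3.4% of all mutants. There *kss1*Δ was called lower, with a log2 fold change of -1.23 ± 0.38 (SE) and an adjusted p of 0.0117 in the same test, as were 93.7% of all mutants. By share, the 6 were also among the 3.72% of mutants whose replicates all rose without overlap, and *kss1*Δ was among the 94.2% whose replicates all fell. Leaving out replicate 1 or replicate 2 of both groups left no mutant of the library called on the TMM scale: without replicate 1 the 6 *ste* mutants had adjusted p-values of 0.0996 to 0.101 (*kss1*Δ then missed the filter), and without replicate 2 the 7 had 0.0598 to 0.0875 (edgeR), with log2 fold changes of 3.77 to 9.32.

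The induced pools were compared to find which cascade mutants lack GFP even after α-factor. The shares of *ste4*Δ in In presort replicates 1 to 3 were 0.0448%, 0.0396%, and 0.0444%, and those in In Gfp- were 0.617%, 0.532%, and 0.452%. For *ste5*Δ the shares were 0.0226%, 0.0183%, and 0.0217% before sorting and 0.311%, 0.289%, and 0.214% after. For *ste11*Δ they were 0.00894%, 0.00649%, and 0.00694%, then 0.101%, 0.0797%, and 0.0620%. For *ste7*Δ they were 0.0356%, 0.0282%, and 0.0263%, then 0.438%, 0.381%, and 0.322%. No sorted library of these 4 overlapped the presort libraries, and the ratios of mean shares were 12.4 (*ste4*Δ), 13.0 (*ste5*Δ), 10.9 (*ste11*Δ), and 12.7 (*ste7*Δ).

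In the same pool *ste20*Δ spread widely. Its share was 0.0256%, 0.0220%, and 0.0254% in In presort and 0.107%, 0.0245%, and 0.00990% in In Gfp-, where replicate 1 was higher, replicate 2 within, and replicate 3 lower than the presort range. Compared with the like-numbered presort library, its share changed 4.17-, 1.12-, and 0.390-fold, and replicate 1 is also the replicate of the other instrument model, whose part in this was not tested. The share of *ste50*Δ fell from 0.0778%, 0.0664%, and 0.0747% to 0.0485%, 0.0256%, and 0.0333%, a ratio of 0.491 without overlap. The share of *kss1*Δ fell from 0.00239%, 0.00262%, and 0.00183% to 0.000464%, 0.000441%, and 0 reads, a ratio of 0.132. The third sorted library is shallow, and a count of 0 there allows a share of up to 0.000990%. The *fus3*Δ strain had 40, 59, and 2 reads in In presort and 12, 0, and 0 in In Gfp-, a ratio of mean shares of 0.0517. The median tested mutant fell further in In Gfp-, to 0.0227 of its presort share. With reads pooled over the group the *fus3*Δ share was 7.41-fold lower, and without In Gfp- replicate 1, which held all 12 sorted reads, it was at least 3.33-fold lower. Floors such as these cover counting error only, since the PCR products carried no molecular identifiers.

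On the TMM scale the 7 were again all called higher in In Gfp-, against 15.2% of the 3553 mutants tested (10.1% were called lower), with a median log2 fold change of 9.26 against -0.69 for all. By share of reads, 4 were called higher (*ste4*Δ, *ste5*Δ, *ste11*Δ, and *ste7*Δ), against 3.35% of all mutants, and *kss1*Δ was called lower, as were 93.7% of all. On that scale the log2 fold change of *ste20*Δ was 0.96 ± 0.88 (SE) with an adjusted p of 0.314, and *ste50*Δ had -1.03 ± 0.52 with an adjusted p of 0.0866 (edgeR quasi-likelihood test, Benjamini-Hochberg). The same 4 were among the 3.83% of mutants whose replicates all rose by share, and *ste50*Δ and *kss1*Δ among the 94.4% whose replicates all fell. Without replicate 1, that is within the HiSeq 2500 libraries, the TMM calls of *ste20*Δ, *ste50*Δ, and *kss1*Δ were lost, with log2 fold changes of 5.23, 3.98, and 2.69 and adjusted p-values of 0.0543, 0.0753, and 0.263 (edgeR). Without In Gfp- replicate 1 alone, *kss1*Δ had 2.60 with an adjusted p of 0.150.

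**Figure D2:**
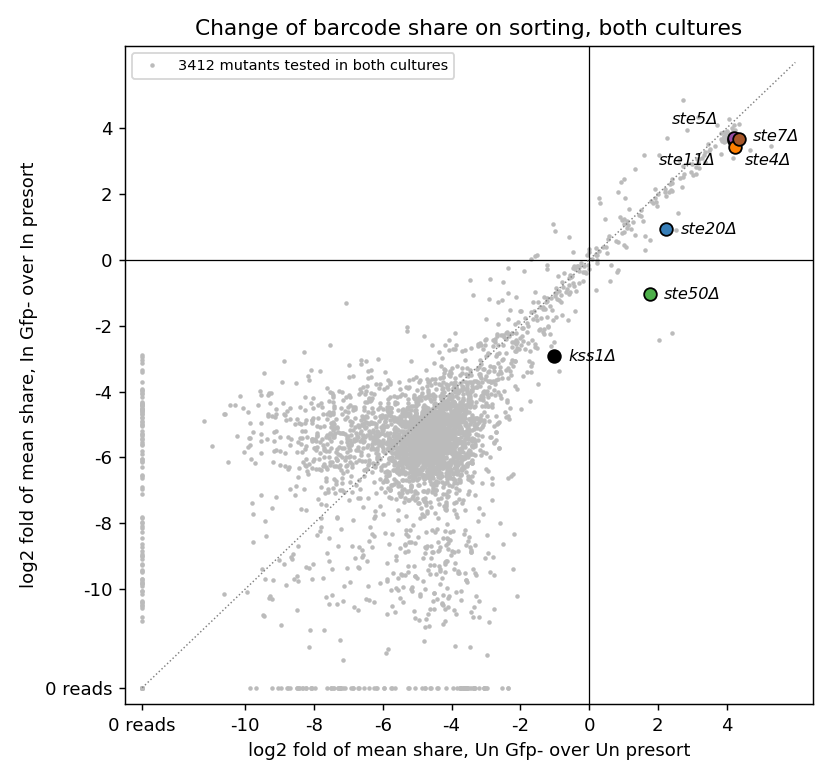
Log2 ratio of the mean share in the Gfp- pool to that before sorting, for Un (x axis) and In (y axis), with cascade mutants in color, the 3412 mutants tested in both cultures in gray, and mutants without sorted reads set at the edge. The members *ste4*Δ, *ste5*Δ, *ste11*Δ, and *ste7*Δ sit together at the upper right, and *ste50*Δ is above 0 in Un and below 0 in In.

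The change on sorting was then compared between the cultures. On the TMM scale no cascade mutant was called different, and neither was any other mutant (0% in each direction of 3412 tested by edgeR, with 184 higher and 158 lower at an unadjusted p under 0.05, while DESeq2 called 29 and 68). The largest estimate among the 7 was that of *ste50*Δ, with a log2 difference (In minus Un) of -2.10 ± 1.09 (SE), an unadjusted p of 0.0681, and an adjusted p of 0.527 (edgeR quasi-likelihood test). By share of reads the difference for *ste50*Δ was -2.79 ± 0.57 (SE), with an unadjusted p of 0.000297 and an adjusted p of 0.0780, while 0.0586% of all mutants were called higher and 0.293% lower. Over the alternatives its adjusted p ranged from 0.0780 to 0.921. For the other 6 the TMM differences lay between -0.38 and 0.36, with SEs of 0.74 to 1.40.

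Because the scaling moves every fold change, the cascade mutants were also compared with each other inside each library, where scaling cancels. Reads of *ste7*Δ were 75.6%, 76.2%, and 72.1% of those of *ste4*Δ in Un presort and 84.7%, 82.2%, and 79.8% in Un Gfp-. In the α-factor culture they were 79.4%, 71.2%, and 59.3% before sorting and 71.0%, 71.5%, and 71.3% after. Reads of *ste5*Δ were 45.6% to 54.4% and those of *ste11*Δ 13.7% to 20.0% of *ste4*Δ reads over all 12 libraries, sorted or not. The proportions among these 4 mutants before sorting were thus close to those after it: their log2 ratios to *ste4*Δ changed by -0.20 to 0.14 on sorting, and by -0.32 to 0.17 from the UPTAG alone.

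The remaining cascade mutants lost ground to *ste4*Δ, as did nearly all mutants of the library. By the ratio of mean shares, *ste4*Δ ranked 15 among the 3414 mutants tested in Un and 40 among the 3553 in In. Reads of *ste20*Δ were 63.7%, 56.0%, and 56.9% of *ste4*Δ reads in Un presort and 30.1%, 8.04%, and 9.11% in Un Gfp-. In the In libraries they were 57.2%, 55.4%, and 57.2% before sorting and 17.3%, 4.61%, and 2.19% after. Replicate 1 was the highest in both sorted pools, whereas the presort libraries lay between 55.4% and 63.7%.

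Reads of *ste50*Δ were 194%, 198%, and 168% of *ste4*Δ reads in Un presort and 174%, 168%, and 168% in In presort, so this was the more abundant strain of the pair before sorting. They were 48.9%, 26.3%, and 29.9% in Un Gfp- and 7.87%, 4.80%, and 7.37% in In Gfp-. The In Gfp- libraries did not overlap the Un Gfp- libraries, with a difference of the mean log2 ratios of -2.37. Reads of *kss1*Δ fell from 6.04%, 8.46%, and 6.45% of *ste4*Δ reads in Un presort to 0.146%, 0.146%, and 0.263% in Un Gfp-. In the In libraries they fell from 5.33%, 6.62%, and 4.12% to 0.0753%, 0.0828%, and 0%.

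**Figure D3:**
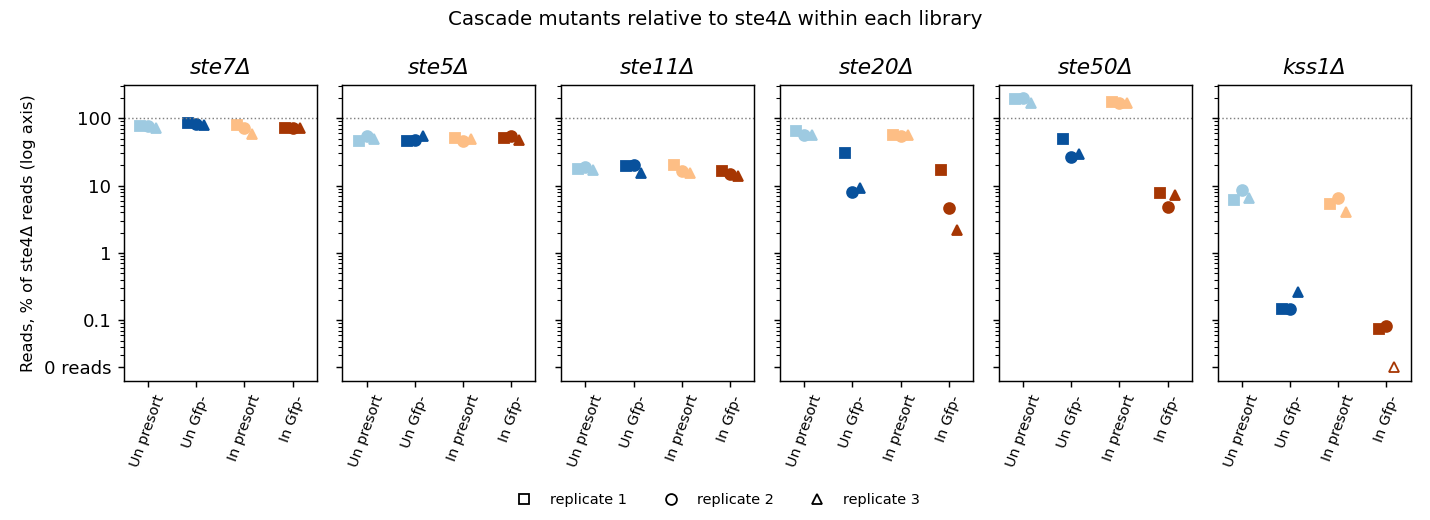
Reads of 6 cascade mutants as a percent of *ste4*Δ reads in the same library (log axis), by group, with the symbol showing the replicate and an open symbol for 0 reads. *ste7*Δ, *ste5*Δ, and *ste11*Δ stay level across the 4 groups, and *ste20*Δ, *ste50*Δ, and *kss1*Δ are lower in both Gfp- pools than before sorting.

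Across the 24 exact two-sided permutation tests of these ratios (6 mutants, 4 pairs of groups, 3 against 3 libraries), the smallest p the design allows is 0.1, so that none can pass 0.05. That smallest p was reached by *ste20*Δ, *ste50*Δ, and *kss1*Δ on sorting in both cultures, by *ste7*Δ in Un, and by *ste50*Δ, *kss1*Δ, and *ste7*Δ between In Gfp- and Un Gfp-, with adjusted values of 0.24. The *ste7*Δ differences were small and turned with the UPTAG alone, from 0.14 to -0.05 (exact p = 0.5) in Un and from -0.21 to 0.07 (exact p = 0.5) between the Gfp- pools. That of *kss1*Δ between the Gfp- pools went from -1.59 to -0.77 (exact p = 0.4) with 5 reads added. The differences on sorting were -2.17 (Un) and -3.33 (In) for *ste20*Δ, -2.46 and -4.70 for *ste50*Δ, and -5.20 and -6.41 for *kss1*Δ, on the log2 scale with 0.5 reads added.

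Ordered by the ratio of mean shares, Un Gfp- ran from *ste7*Δ, *ste11*Δ, *ste4*Δ, and *ste5*Δ to *ste20*Δ, *ste50*Δ, *kss1*Δ, and *fus3*Δ. In Gfp- ran from *ste5*Δ, *ste7*Δ, *ste4*Δ, and *ste11*Δ through *ste20*Δ and *ste50*Δ to *kss1*Δ and *fus3*Δ. This order was taken from the libraries in which its neighbors were then tested. It largely sets the direction of each difference, so the tests describe the order and give it no independent support. Of the 14 neighboring pairs, the ratio within a library reached the smallest exact permutation p of 0.1 (two-sided, adjusted p = 0.28, 3 against 3) for *ste5*Δ over *ste20*Δ, *ste50*Δ over *kss1*Δ, and *kss1*Δ over *fus3*Δ in Un, and for *ste11*Δ over *ste20*Δ and *ste50*Δ over *kss1*Δ in In. The last of these fell from 1.71 to 0.53 (exact p = 0.6) with 5 reads added. The place of *kss1*Δ over *fus3*Δ is not resolved. In Un the difference was 2.64, but the sorted *fus3*Δ reads are all 0, so the ratio is set by the reads added. With 5 reads added that difference was 0.17 (exact p = 0.9). In the In libraries the difference was -0.02 (exact p = 1). The other neighbors had exact permutation p-values of 0.3 to 0.9. Among them, *ste20*Δ over *ste50*Δ gave a difference of 0.29 (exact p = 0.7) in Un and 1.37 (exact p = 0.4) in In. That of *ste4*Δ over *ste11*Δ in In was 0.20 (exact p = 0.3), just above its SDs of 0.18 (presort) and 0.13 (sorted). It reached an exact p of 0.1 with 5 reads added (0.24) and from the DNTAG (0.25), but was -0.016 from the UPTAG.

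Induced and uninduced presort libraries were compared to ask whether α-factor itself changed the mutants' abundance within the 2 hr. No mutant was called in either direction (0% of 3504 tested by edgeR and by DESeq2, with 20 higher and 14 lower at an unadjusted p under 0.05 in edgeR and 13 and 12 in DESeq2). The 7 tested cascade mutants had log2 fold changes of 0.01 (*kss1*Δ) to 0.33 (*ste4*Δ), with a median of 0.26 against -0.01 for all mutants. The smallest unadjusted p-values among them were 0.0590 for *ste5*Δ (0.31 ± 0.13, SE) and 0.0742 for *ste4*Δ (0.33 ± 0.15), and all 7 had an adjusted p of 1.00 to 2 decimals (edgeR quasi-likelihood test). The *fus3*Δ reads followed the DNTAG depth, with 0.000838%, 0.00151%, and 0.000905% of DNTAG reads in Un presort and 0.000622%, 0.00126%, and 0.000835% in In presort.

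Each strain was read through both of its barcodes. The UPTAG and the DNTAG of *ste4*Δ gave ratios of mean share of 18.8 and 18.5 in Un and 11.2 and 13.3 in In. For *ste20*Δ they gave 4.89 and 4.73 in Un and 1.81 and 2.11 in In. For *ste50*Δ they gave 3.23 and 3.33 in Un and 0.447 and 0.539 in In, so its opposite directions in the cultures were seen from either barcode. For *kss1*Δ they gave 0.343 and 0.569 in Un and 0.119 and 0.0913 in In, from 0 to 50 sorted reads a barcode. Within a library, the log2 ratio of the UPTAG share to the DNTAG share had an SD over the 12 libraries of 0.14 (*ste7*Δ) to 0.32 (*ste50*Δ) for the 6 *ste* mutants and 0.97 for *kss1*Δ. The *fus3*Δ strain was seen through its DNTAG alone, apart from 1 UPTAG read in In presort replicate 2.

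**Figure D4:**
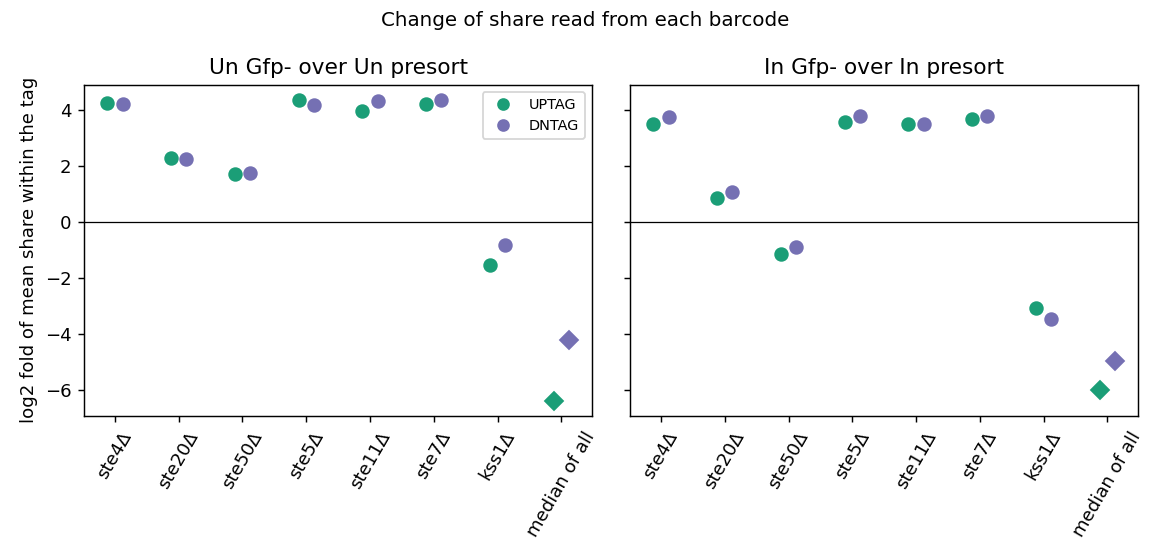
Log2 ratio of the mean share of UPTAG reads (green) or DNTAG reads (purple) in the Gfp- pool to that before sorting, for 7 cascade mutants and as the median of the mutants tested for a tag difference (diamonds). The barcodes of each *ste* mutant nearly coincide, while the median mutant falls further by its UPTAG, to 0.0121 against 0.0535 in Un and to 0.0156 against 0.0319 in In.

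None of the 7 cascade mutants tested was called different between its barcodes in a model with a term for tag by sorting, which *fus3*Δ did not enter. In Un, 0.0679% of the 2944 mutants tested had a higher and 0.034% a lower UPTAG than DNTAG enrichment, and in In 0.551% and 7.39% of 3085 (edgeR quasi-likelihood test, adjusted p under 0.05). The medians for the 7 were -0.51 in Un and -0.01 in In on the log2 scale, beside -0.53 and -1.41 for all mutants tested. Their smallest adjusted p was 0.328, for *kss1*Δ in In, with a log2 difference of -1.05 ± 0.74 (SE). Over the alternatives that estimate ran from -1.64 to 9.23, so a difference between the barcodes of *kss1*Δ is not excluded.

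Other genes of the mating response were counted from a list of 15, of which 10 were tested. On the TMM scale 2 were called higher and 1 lower in Un Gfp-, and 3 higher and 1 lower in In Gfp-, beside 12.2% higher and 5.27% lower of all mutants in Un and 15.2% and 10.1% in In. The medians were -0.28 and 0.08, beside -0.55 and -0.69 for all mutants. By share, the barcode of *gpa1*Δ, the deletion of the Gα gene, was 17.9-fold higher in Un Gfp- and 12.4-fold higher in In Gfp-, values next to those of *ste4*Δ. Loss of Gα frees Gβγ and is lethal in haploid cells, yet this barcode had 183 to 774 reads in the Un presort libraries and 83 to 1347 in the In presort libraries. The genotype behind it was not tested, and the paper reports that its screen did not pick up *gpa1*Δ. The *dig1*Δ strain, which lacks a repressor of Ste12, was 6.71- and 7.22-fold higher. In the paper's survey of single mutants, however, *dig1*Δ had reporter expression like that of wild type. The receptor mutant *ste2*Δ fell to 0.0520 and 0.126 of its presort share, and its TMM log2 fold change was 0.68 (adjusted p = 0.306) in Un and 2.15 (adjusted p = 0.00403, edgeR) in In. The phosphatase mutant *ptp3*Δ was called lower in Un (-2.38) and *ptp2*Δ in In (-1.88). The *ste12*Δ and *ste18*Δ strains had no reads, so the transcription factor and the Gγ subunit are not seen here.

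Kinases and upstream proteins of other MAP kinase cascades, a list of 17 with 14 tested, had medians near those of the whole library. On the TMM scale 1 was called higher in each pool, the cell wall integrity MAPKK mutant *mkk2*Δ, with log2 fold changes of 1.58 and 1.91, beside 12.2% (Un) and 15.2% (In) of all mutants. None was called lower in Un and 3 in In (*msb2*Δ, *ssk2*Δ, and *kdx1*Δ), beside 5.27% and 10.1% of all mutants. By share all 14 were called lower in Un, as were 93.7% of all mutants. The medians were -0.73 in Un and -1.10 in In on the TMM scale. The high osmolarity MAP kinase mutant *hog1*Δ fell from 0.0342% ± 0.00750 to 0.000847% ± 0.000625 in Un and from 0.0283% ± 0.00894 to 0.000466% ± 0.000463 in In (SD, n = 3).

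**Figure D5:**
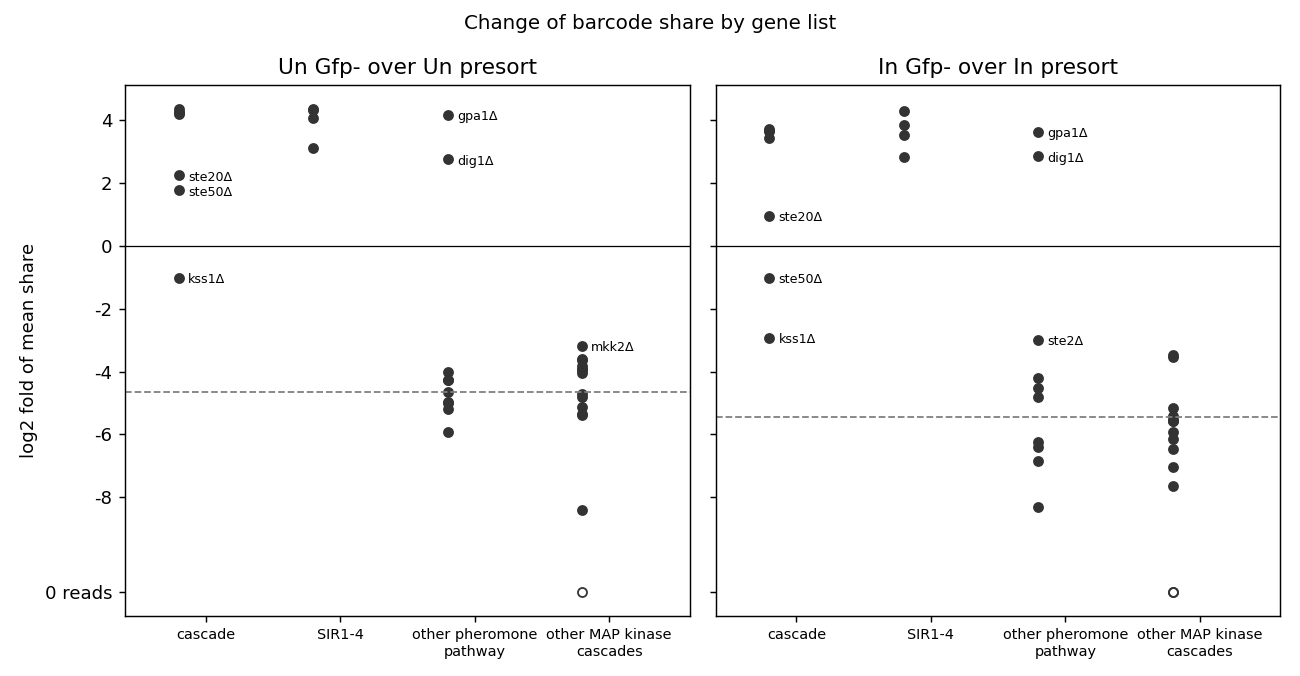
Log2 ratio of the mean share in the Gfp- pool to that before sorting for each tested mutant of 4 gene lists in Un (left) and In (right), with a dashed line at the median of all tested mutants and open symbols for mutants with 0 sorted reads. The *ste4*Δ, *ste5*Δ, *ste7*Δ, and *ste11*Δ strains, *gpa1*Δ, and *dig1*Δ are well above 0, and the other MAP kinase cascades lie around the median.

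A deletion can also affect the gene beside it, so the mutants within 2 systematic numbers of each cascade gene were examined. Of these 36, 23 were tested in each culture, and their shares in the Gfp- pools were 0.00138 to 0.106 (Un) and 0.000643 to 0.0756 (In) of those before sorting. None rose by share, beside 3.72% (Un) and 3.83% (In) of all mutants that rose without overlap. On the TMM scale none was called in Un, beside 12.2% higher and 5.27% lower of all mutants, and in In *shu1*Δ, beside *STE20*, was called higher (1.51, adjusted p = 0.0390), and *grx8*Δ, near *STE11*, and *mte1*Δ, near *KSS1*, lower (-3.09 and -2.64, adjusted p = 0.0447 and 0.0483, edgeR), beside 15.2% higher and 10.1% lower of all mutants.

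The mutants with the most similar levels were taken as those with the smallest root mean square difference of log2 CPM (reads scaled to library size, with 0.5 reads added) over the 12 libraries. For *ste4*Δ these were *yil032c*Δ (0.23), *rof1*Δ (0.33), and *ydl041w*Δ (0.38). For *ste5*Δ they were *rps12*Δ (0.19), *sir2*Δ (0.29), and *mmf1*Δ (0.31), and for *ste7*Δ *sir3*Δ (0.21), *ydl041w*Δ (0.28), and *mnt3*Δ (0.37). For *ste11*Δ they were *msl1*Δ (0.30), *bnr1*Δ (0.43), and *rps24b*Δ (0.48). The YDL041W reading frame lies wholly over *SIR2* (YDL042C), so that its deletion also removes *SIR2* sequence. The silencing mutants were thus among the nearest to the scaffold and MAPKK mutants. The measure compares levels, so presort abundance enters it: *sir3*Δ and *ste7*Δ each held 0.0255% of Un presort reads. In the paper's retests, *yil032c*Δ and *mnt3*Δ had wild-type reporter expression. The library's *rof1*Δ (YHR177W) and *rps12*Δ had lower basal GFP and no induction, but a newly made *rof1*Δ was like wild type. Matches were looser for *ste50*Δ, with *nrk1*Δ at 0.71, *kss1*Δ, with *rps28a*Δ at 0.73, and *ste20*Δ, with *sma2*Δ at 0.96. The nearest to *fus3*Δ, *rtg1*Δ at 0.40, rests on the few reads of both strains. The *nrk1*Δ share rose 3.12-fold in Un and 1.22-fold in In. That of *ste50*Δ fell in In to 0.491 of its presort share, and 94.4% of all mutants tested there also fell without overlap.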

How the data were processed

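Bar-Seq reads were, per the paper's methods and the labels, amplified by PCR, aligned by the authors to known barcodes with Bowtie2, and counted in R. The deposited table holds raw counts of each mutant in 48 columns, of which 24 matched the labels used here and 24 were not used. UPTAG and DNTAG counts were summed per library. Mutants with a presort mean of at least 50 reads were tested with the quasi-likelihood test of edgeR 4.0.16 (R 4.3.3; TMM scaling, Benjamini-Hochberg), each comparison on its own libraries. The tag model blocked on library and required a presort mean of at least 10 reads in each tag. Total counts, DESeq2 1.42.0 and its size factors, other filters, each tag alone, and omission of replicates or libraries were tried as alternatives, and comparisons with *ste4*Δ within a library were added after the data were seen. In the sorting comparisons the TMM factors were 4.91 to 6.57 for presort and 0.0849 to 0.547 for sorted libraries. The functions were run on simulated counts in which most mutants did not change, so the fall of most mutants on sorting was not covered. Python 3.11.15 and scipy 1.17.1 gave exact permutation tests. Symbols came from the RefSeq R64 gene table, which matched 5651 of 6128 names. The text names all 8 members, listed genes by count, neighbors, and the 3 most similar mutants. The members and lists were chosen with earlier results of these data known. RNA-Seq and ChIP-Seq files were not used.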

Additional observations from a re-analysis of the deposited data

Results flagged for a closer look

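The *ste50*Δ share of reads moved in opposite directions in the cultures: all 3 Un Gfp- libraries were above all 3 Un presort libraries, and all 3 In Gfp- libraries were below all 3 In presort libraries. Of all mutants tested, 3.72% rose in that way in Un and 94.4% fell in In. The opposite directions are those of the share of reads: relative to the bulk of the library (TMM scaling), *ste50*Δ was called higher in both Gfp- pools. The test of the difference itself, on the TMM scale, gave a log2 difference (In minus Un) of -2.10 with an adjusted p of 0.527 (edgeR quasi-likelihood test, Benjamini-Hochberg), and by share of reads -2.79 with an unadjusted p of 0.000297 and an adjusted p of 0.0780. Neither passes.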

How the results depend on the processing

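Scaling decided the most. With total counts in place of TMM, the mutants called higher and lower in Un Gfp- were 116 and 3199 in place of 416 and 180, and in In Gfp- 119 and 3330 in place of 540 and 359. The log2 fold changes of *kss1*Δ turned from positive to negative with total counts (-1.23 in Un and -2.48 in In), as did that of *ste50*Δ in In (-1.03). DESeq2 called 406 lower in Un and 697 lower in In, and its size factors in edgeR gave 633 lower in In. A minimum of 50 reads in every presort library gave 205 lower in In, the UPTAG alone 1598, and the DNTAG alone 593. With the instrument model as a covariate 40 were called lower in Un and 110 in In.

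Leaving out a replicate or a library gave 0 to 575 mutants called higher and 0 to 366 lower in Un, and 208 to 600 higher and 0 to 405 lower in In. The numbers were 0 to 3 higher and 0 to 11 lower for the difference between the cultures. For tag by sorting, leaving out each replicate number gave 0 to 2 higher and 0 to 1 lower in Un, and 3 to 26 higher and 0 to 861 lower in In.

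Against 0 in edgeR with TMM, the difference between the cultures was called higher and lower for 2 and 10 mutants with total counts, 1 and 8 with DESeq2 size factors, 29 and 68 with DESeq2, 4 and 11 without a filter, 7 and 172 from the UPTAG alone, and 5 and 6 from the DNTAG alone, and 1 was called lower with 50 reads in every presort library. For tag by sorting, DESeq2 gave 7 higher in Un, and 57 higher and 590 lower in In. Its size factors gave 4 higher in Un and 131 lower in In, total counts 370 lower in In, a minimum of 50 presort reads in each tag 4 higher in Un and 11 in In, and no filter 27 higher in In. The cause was not tested.

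Replicate numbers are shared by the groups, but the labels do not say that a number marks a shared culture. Deviations of same-numbered libraries correlated at 0.27, 0.07, and 0.32 in Un, at -0.04, -0.09, and 0.02 in In, and at 0.57, -0.62, and -0.66 between the presort groups, for the summed tags, whose mix differs between libraries. By tag, the presort groups correlated at 0.63, 0.44, and 0.36 (UPTAG) and 0.68, 0.30, and -0.05 (DNTAG), Un at 0.29, 0.11, and 0.12 and 0.23, 0.09, and 0.10, and In at -0.04 to 0.04. Same-numbered libraries were thus alike in part of the comparisons. They also shared an instrument model, which was another one for replicate 1 than for replicates 2 and 3. A shared culture and a shared instrument model cannot be told apart here. The replicate block gave 98 called lower in Un and 316 higher and 12 lower in In, and *kss1*Δ in In then had 3.00 with an adjusted p of 0.120 (edgeR). The other tested cascade mutants kept their calls under the block.

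Over all alternatives, 616 of the members' values kept their side of the threshold, called values also their direction, 19 lost the call, and 3 turned. The 616 include the presort, culture, and tag comparisons, where no member was called and a value counts as kept whatever its sign. Every lost or turned call was in the comparisons of a Gfp- pool with its presort libraries. From the UPTAG alone, the within-library differences between neighbors in the order turned by more than the larger SD of a group for *ste11*Δ to *ste4*Δ in Un (-0.32), *ste4*Δ to *ste11*Δ in In (-0.016), and *kss1*Δ to *fus3*Δ in Un (-3.31), where *fus3*Δ has no UPTAG reads. Moving by less than that SD, signs also changed from the UPTAG for *ste4*Δ to *ste5*Δ in Un (-0.093) and *ste5*Δ to *ste7*Δ in In (-0.094), from the DNTAG for the latter (-0.023), and with 5 reads added for *ste11*Δ to *ste4*Δ in Un (-0.011). Beside those of *ste7*Δ given above, the ratios to *ste4*Δ between the Gfp- pools turned for *ste11*Δ from the UPTAG (0.09) and for *ste5*Δ from the DNTAG (-0.11), and between the presort groups for *ste5*Δ from the UPTAG (0.16) and *ste11*Δ from the DNTAG (0.03). The ratios to *ste4*Δ and the limits on *fus3*Δ without a library were added after the data were seen. Depth limits *kss1*Δ and *fus3*Δ most, since they had under 150 and under 30 reads a presort library in Un.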

Other observations

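The strains nearest to the cascade mutants in level were often deletions of genes on chromosome IX: 7 of the 24 entries were on its left arm and 1 on its right arm. This was looked at further after those names were seen, and was not tested. Of the 3412 mutants tested in both cultures, 119 (3.49%), among them 4 cascade mutants, had shares that rose without overlap of replicates in both Gfp- pools. On the left arm of chromosome IX these were 30 of 110 (27.3%), on its right arm 3 of 30 (10%), and on every other arm at most 7.5%.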
